A study of Mus musculus with 6 samples.

Results

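Glutathione is the main small thiol of the cell, and 10 genes that make it, recycle it, spend it or supply it with reducing power were followed in injured mouse kidney. The genes were Gclc, Gclm, Gss, Gsr, Gpx1, Gpx3, Glrx, G6pdx, Pgd and Taldo1. They were found by gene symbol, each symbol had 1 row among the 56747 gene rows of the table, and all 10 were among the 17557 genes with enough reads to be tested.

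The libraries were RNA-seq profiles of whole kidney from male wild-type C57BL/6J mice, all of which had kidney ischemia followed by reperfusion. The tacrolimus group (3 libraries) had oral tacrolimus, a calcineurin inhibitor used against transplant rejection, at 1 mg/kg/day for 1 day before surgery. The saline group (3 libraries) had oral 0.9% saline on the same schedule, and in both groups 30 min of ischemia were followed by 24 h of reperfusion. The comparison therefore asked how these transcripts differed with tacrolimus in kidneys that had all been injured, and no uninjured kidney was analysed here. The design text describes a partial bilateral ischemia for saline and an occlusion of both renal arteries for tacrolimus, so a difference in surgery and the drug cannot be told apart. The text gives 6 animals per group, and no label ties a library to its own animal. The p-values therefore measure the spread between libraries, which may be technical. In whole kidney, fewer cells of a type and less RNA per cell cannot be told apart.

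Glutathione is built from glutamate, cysteine and glycine in a pair of ATP-driven steps, of which the first, carried out by glutamate-cysteine ligase, limits the rate. Glutathione peroxidases and glutaredoxin oxidise it to its disulfide as they detoxify peroxides and restore protein thiols, and glutathione reductase turns the disulfide back with NADPH. The oxidative branch of the pentose phosphate pathway is a main source of that NADPH, and the proximal tubule, the nephron segment most exposed to ischemia, both makes and breaks down much glutathione. Gclc, Gclm, Gsr, G6pdx, Pgd and Taldo1 are known targets of the transcription factor NRF2, which binds antioxidant response elements.

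Promoter windows from RefSeq were examined because NRF2 is known to act through such elements, and because Gclc, Pgd, Taldo1 and G6pdx were the members whose groups did not overlap. The windows run from 250 bases before to 50 bases after an annotated gene start on the mouse build GRCm38.p6, and 8 of the 10 members had 10 windows in all. Gclc and Gsr had no window and were not searched. The only motif searched was the core TGACNNNGC, on both strands, and 3 members had a match, in 3 of the 10 windows. Of all 32851 promoter windows of the same length (300 bases), 4071 or 12.4% had a match. The windows of those 3 members and of Taldo1, with no match, are printed 5′ to 3′ on the strand of the gene, and capitals mark the match, which reads as its reverse complement where it lies on the other strand.
Gclm, chr3:122245307-122245606, plus strand: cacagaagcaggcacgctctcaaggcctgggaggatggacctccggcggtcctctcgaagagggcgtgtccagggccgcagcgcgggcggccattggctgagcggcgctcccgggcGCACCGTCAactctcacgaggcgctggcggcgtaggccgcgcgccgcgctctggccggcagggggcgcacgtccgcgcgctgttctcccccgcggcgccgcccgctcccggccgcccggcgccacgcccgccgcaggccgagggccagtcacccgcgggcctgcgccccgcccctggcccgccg
G6pdx, chrX:74428831-74429130, minus strand: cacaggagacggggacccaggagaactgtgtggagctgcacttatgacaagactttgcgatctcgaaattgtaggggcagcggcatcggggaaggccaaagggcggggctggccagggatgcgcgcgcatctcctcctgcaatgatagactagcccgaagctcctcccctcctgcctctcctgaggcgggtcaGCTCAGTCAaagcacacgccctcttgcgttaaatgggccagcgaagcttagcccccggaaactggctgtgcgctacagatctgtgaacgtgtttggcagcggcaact
Pgd, chr4:149166033-149166332, minus strand: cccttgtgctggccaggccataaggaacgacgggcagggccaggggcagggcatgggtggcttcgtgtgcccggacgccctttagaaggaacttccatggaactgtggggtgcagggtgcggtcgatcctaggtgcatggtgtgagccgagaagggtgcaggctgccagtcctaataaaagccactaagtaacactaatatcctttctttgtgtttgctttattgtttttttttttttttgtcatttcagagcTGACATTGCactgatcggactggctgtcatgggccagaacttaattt
Taldo1, chr7:141391910-141392209, plus strand: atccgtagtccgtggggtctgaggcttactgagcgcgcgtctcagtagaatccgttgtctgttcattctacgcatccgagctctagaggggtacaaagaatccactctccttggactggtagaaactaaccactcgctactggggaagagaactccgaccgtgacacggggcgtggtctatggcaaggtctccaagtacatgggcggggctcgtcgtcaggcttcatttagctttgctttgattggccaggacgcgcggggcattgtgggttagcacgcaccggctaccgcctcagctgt
The match in Gclm lay on the other strand with its first printed base 134 bases before the start, and the match in G6pdx lay on the other strand 57 bases before the start. In Pgd the match was on the gene's own strand at base 4 after the start, in the window of the more downstream of its pair of annotated starts. It thus lies in sequence transcribed from that start and not upstream of it. The window of its upstream start had none, as had those of Gss, Gpx1, Gpx3 and Glrx. A match describes letters in a window and is not a measured binding site.

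Depth was similar in all libraries, at 38443534 to 44476844 counts, so that 1 CPM (a count scaled to 1e+06 reads of the TMM-adjusted library) stood for 39.4 to 42.5 counts. One library stood apart from its label. Saline replicate 1 lay 0.395 to 0.411 from the tacrolimus libraries (root mean square difference of log2 CPM over all genes tested), as near as those lay to each other (0.375 to 0.415), against 0.629 and 0.784 from saline replicates 2 and 3. Over all 17557 genes, edgeR's quasi-likelihood test with Benjamini-Hochberg adjustment called 2 genes lower with tacrolimus (0.0114% of those tested) and 0 higher (0%). At an unadjusted p under 0.05 the same test had 1355 genes lower (7.72%) and 868 higher (4.94%). Results are therefore given with all 6 libraries and again without saline replicate 1, which removes the saline library most like the tacrolimus ones. That library was singled out from these same values, and leaving it out raised the genes called from 2 to 2534. The p-values without it are therefore biased toward small values and are given as description only. Kidney markers were present, with 18 of 18 proximal tubule genes and 6 of 6 thick ascending limb genes tested. Of 9 liver, adrenal and fat genes, 5 were tested, and 2, the adrenal genes Cyp11b1 and Cyp11a1, were at 0 counts in every library. The 9 genes summed to 109 to 156 CPM with tacrolimus and 124 to 153 CPM with saline.

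With tacrolimus, 7 of the 10 genes had a lower mean and 3 a higher one, with a median log2 fold change of -0.56 against -0.01 over all genes tested (8899 lower, 8658 higher). None of the 10 passed an adjusted p of 0.05 in either direction with all 6 libraries. Gclc, Taldo1, Pgd and G6pdx were lower in every tacrolimus library than in every saline library, 4 of 10, where 11% of all genes tested showed this pattern. No member was higher in every tacrolimus library, a pattern that 10.7% of genes showed. The same 4 genes were the members with an unadjusted edgeR p under 0.05, all lower. Of all genes tested, 7.72% were lower at that p and 4.94% higher. That p and the separation of the groups come from the same values. The other 6 members overlapped between groups. The members were chosen with earlier results of these data known. Their median and their counts beside the shares of all genes, here and below, are therefore description only.

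**Figure D1:**
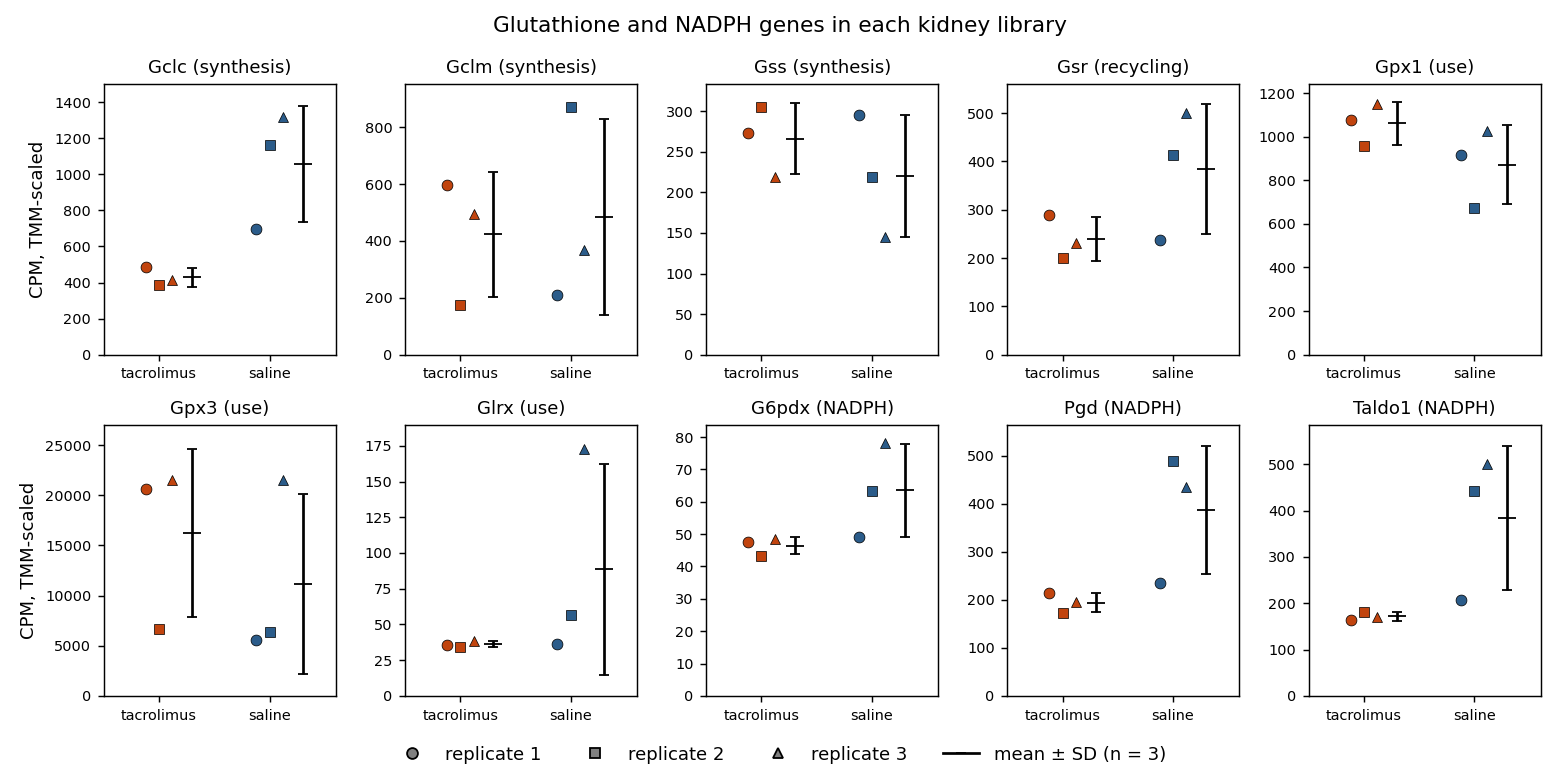
Level of each gene in TMM-scaled CPM (linear axes from 0), with tacrolimus libraries in orange at the left, saline libraries in blue at the right, symbols for the replicates and bars for mean ± SD (n = 3). Gclc, G6pdx, Pgd and Taldo1 lay lower in all 3 tacrolimus libraries, with saline replicate 1 as the lowest saline point, while Gpx3 and Gclm took high and low values in both groups.

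Per transcript length, the secreted peroxidase dominated. Gpx3 averaged 8989 ± 4619 FPKM (fragments scaled by gene length and by library total) with tacrolimus and 6094 ± 4885 FPKM with saline (SD, n = 3 each), and its reads alone made up 0.567% to 2.16% of a library. Gpx1 came second at 738 ± 69.7 FPKM with tacrolimus and 602 ± 123 FPKM with saline, followed by Gclc at 114 ± 13.8 FPKM and 280 ± 84.0 FPKM. At the low end, G6pdx averaged 15.1 ± 0.891 FPKM with tacrolimus and 20.5 ± 4.55 FPKM with saline, and Glrx 6.58 ± 0.376 FPKM and 16 ± 13.2 FPKM in the same order. The remaining 5 genes lay between these ends. With tacrolimus, the ranges of mean ± SD overlapped between neighbours from Gclc through Gsr, Taldo1 and Gclm to Gss. With saline, only the steps below Gpx3 and below Gpx1 had ranges that did not overlap. Within libraries the order could still be steady. Gclc exceeded Gsr in tacrolimus replicates 1 to 3 (129, 103 and 110 against 105, 72.9 and 84.2 FPKM). It exceeded Taldo1 in saline replicates 1 to 3 (185, 308 and 346 against 95.9, 204 and 228 FPKM). The length behind the FPKM values is not a column of the table and was 1.03 to 1.82 times the listed gene length for these genes, so the order rests on the authors' choice of length.

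Among the synthesis genes, the catalytic subunit was the one with separate groups. Gclc encodes the catalytic subunit of glutamate-cysteine ligase (chromosome 9, 77661817 to 77701767, GRCm39). It had 486, 385 and 412 CPM in tacrolimus replicates 1 to 3, against 698, 1163 and 1317 CPM in saline replicates 1 to 3. All tacrolimus values lay below all saline values, and the nearest saline library was replicate 1. The mean was 2.48-fold lower with tacrolimus, a log2 fold change of -1.31 ± 0.26 (SE), with an unadjusted p of 0.00157 and an adjusted p of 0.392 in edgeR's quasi-likelihood test. Without saline replicate 1 the log2 fold change was -1.53 ± 0.14 with an edgeR adjusted p of 0.00568, and DESeq2 on all 6 libraries gave an adjusted p of 0.00101.

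Gclm encodes the modifier subunit, which makes the ligase more efficient (chromosome 3, 122039206 to 122064381). It had 597, 176 and 497 CPM in tacrolimus replicates 1 to 3, against 211, 872 and 367 CPM in saline replicates 1 to 3. Both groups held low and high libraries, and the lowest and the highest library differed 4.95-fold. The log2 fold change was -0.19 ± 0.62 (edgeR adjusted p = 0.886), and it was 0.18 without tacrolimus replicate 2 and 0.55 without saline replicate 2, so no direction can be given. The pseudogene Gm6061 overlaps Gclm on the same strand over 492 bases and had 19.9, 29.2 and 90.4 CPM with tacrolimus and 11.5, 104 and 10.9 CPM with saline. Summed with it, Gclm stood at 617, 205 and 587 CPM with tacrolimus and 223, 976 and 378 CPM with saline, with the same libraries high and low.

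Within a library, the ratio of Gclc to Gclm does not depend on scaling between libraries. On FPKM it was 1.36, 3.66 and 1.39 in tacrolimus replicates 1 to 3, against 5.51, 2.23 and 6.00 in saline replicates 1 to 3. The ratio was lowest in tacrolimus replicates 1 and 3 and highest in saline replicates 1 and 3, and the groups overlapped. The mean log2 ratio was 1.14 lower with tacrolimus (-1.14), with an exact two-sided permutation p of 0.2, where 3 libraries against 3 can reach 0.1 at the least.

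Gss encodes glutathione synthetase, which adds glycine in the second step (chromosome 2, 155405101 to 155434730). It had 274, 306 and 219 CPM in the tacrolimus libraries, against 296, 218 and 145 CPM in the saline libraries. The groups overlapped, and saline replicate 1 lay among the tacrolimus values. Its log2 fold change was 0.28 ± 0.27 (edgeR adjusted p = 0.614), and 0.55 ± 0.23 without saline replicate 1 (edgeR adjusted p = 0.153). Gss and Acss2 lie on opposite strands and overlap over 22544 bases, and with strand use not given their reads cannot be told apart there.

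Gsr encodes glutathione reductase, which recycles the disulfide (chromosome 8, 34142551 to 34188191). It had 289, 200 and 231 CPM in tacrolimus replicates 1 to 3, against 237, 414 and 500.5 CPM in saline replicates 1 to 3. Saline replicate 1 lay within the tacrolimus range, and the other saline libraries lay above it. The log2 fold change was -0.68 ± 0.29 (edgeR adjusted p = 0.398), and without saline replicate 1 it was -0.93 ± 0.18, a 1.90-fold lower level, with an edgeR adjusted p of 0.0278.

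The genes that spend glutathione had no common direction. Gpx1 encodes the ubiquitous cytosolic and mitochondrial peroxidase (chromosome 9, 108216102 to 108217542). It had 1076, 955 and 1152 CPM with tacrolimus, against 914, 674 and 1027 CPM with saline, and the groups overlapped through saline replicate 3. Its log2 fold change was 0.28 ± 0.19 (edgeR adjusted p = 0.476). A noncoding model on the other strand overlaps 1210 bases of Gpx1 and held 11693 reads over the 6 libraries, against 241930 for Gpx1.

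Gpx3 encodes the secreted plasma peroxidase, which is made mainly by the kidney's proximal tubule (chromosome 11, 54793279 to 54801203). It had 20603, 6630 and 21531 CPM in tacrolimus replicates 1 to 3, against 5532, 6362 and 21470 CPM in saline replicates 1 to 3. The libraries fell at a high level (tacrolimus replicates 1 and 3, saline replicate 3) and a low one (tacrolimus replicate 2, saline replicates 1 and 2), which crossed the groups. The log2 fold change of 0.55 ± 0.65 (edgeR adjusted p = 0.676) is an average over those levels, and leaving out 1 library at a time moved it between 0.23 (without saline replicate 1) and 1.45 (without saline replicate 3).

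Such spread was unusual at this abundance. Of 1713 genes with a mean of at least 100 CPM, 13 (0.759%) had a coefficient of variation above 50% in both groups, among them Gpx3 (51.4% with tacrolimus, 80.7% with saline) and Gclm (52.0% with tacrolimus, 71.4% with saline). The medians over these genes were 6.16% with tacrolimus and 17.0% with saline. A ratio of highest to lowest library as large as the 3.89 of Gpx3 was seen in 130 of the genes (7.59%), and one as large as the 4.95 of Gclm in 88 (5.14%). The next genes on the chromosome did not show the pattern, since Tnip1 had 15.4 to 17.0 CPM with tacrolimus and 17.1 to 21.7 CPM with saline, and Anxa6 had 70.6 to 85.7 CPM and 64.3 to 89.7 CPM in the same order. Red cell markers (6 of 6 tested) summed to 2497, 577 and 1114 CPM in tacrolimus replicates 1 to 3 and to 395, 167 and 1526 CPM in saline replicates 1 to 3. Their sum was highest in the 3 libraries where Gpx3 was high, and its part in the result was not tested. Proximal tubule markers (18 of 18 tested) summed to 22930 to 26770 CPM with tacrolimus and 14080 to 20680 CPM with saline. That sum was not ordered like Gpx3.

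The ratio of the secreted to the cellular peroxidase had the same levels. Gpx3 over Gpx1 on FPKM was 15.2, 5.52 and 14.9 in tacrolimus replicates 1 to 3, against 4.81, 7.50 and 16.6 in saline replicates 1 to 3. High and low ratios again occurred in both groups. The mean log2 ratio differed by 0.35 (exact two-sided permutation p = 0.7), and by -0.05 without saline replicate 1.

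Glrx encodes glutaredoxin, which removes glutathione from modified protein thiols (chromosome 13, 75987987 to 75998273). It had 35.3, 34.5 and 38.3 CPM in tacrolimus replicates 1 to 3, against 36.4, 56.3 and 173 CPM in saline replicates 1 to 3. The tacrolimus values were narrow, saline replicate 1 lay among them, and saline replicate 3 was far above all others. Its log2 fold change was -1.29 ± 0.55 (edgeR adjusted p = 0.397) and -1.66 ± 0.43 without saline replicate 1 (edgeR adjusted p = 0.0546). Without saline replicate 3 it was -0.36, so the size rested on that library.

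The 3 genes of the pentose phosphate pathway all had separate groups. G6pdx encodes glucose-6-phosphate dehydrogenase, the entry enzyme and first NADPH-producing step (chromosome X, 73453089 to 73472800). It had 47.4, 43.4 and 48.5 CPM in tacrolimus replicates 1 to 3, against 49.2, 63.3 and 78.1 CPM in saline replicates 1 to 3. The groups did not overlap, but saline replicate 1 exceeded tacrolimus replicate 3 by under 1 CPM. The mean was 1.37-fold lower with tacrolimus (log2 fold change -0.45 ± 0.18, edgeR adjusted p = 0.393), and without saline replicate 1 the log2 fold change was -0.60 ± 0.13 (edgeR adjusted p = 0.0343). The gene Ikbkg lies on the other strand over all 19712 bases of G6pdx and had 30.8, 24.8 and 24.3 CPM with tacrolimus and 16.8, 66.1 and 12.8 CPM with saline, so the G6pdx counts are uncertain to the extent that reads were shared.

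Pgd encodes phosphogluconate dehydrogenase, the second NADPH-producing step (chromosome 4, 149234448 to 149251228). It had 214, 173 and 195 CPM in tacrolimus replicates 1 to 3, against 236, 489 and 435 CPM in saline replicates 1 to 3. All tacrolimus libraries lay lower, and saline replicate 1 lay nearer to them than to the other saline libraries. The mean was 1.99-fold lower with tacrolimus, with a log2 fold change of -0.99 ± 0.28 and an adjusted p of 0.392 in edgeR's test. Without saline replicate 1 the log2 fold change was -1.25 ± 0.13 (edgeR adjusted p = 0.00652), and DESeq2 on 6 libraries gave an adjusted p of 0.0465.

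Taldo1 encodes transaldolase, which links the pathway back to glycolysis and makes no NADPH itself (chromosome 7, 140972112 to 140982881). It had 164, 182 and 170 CPM in tacrolimus replicates 1 to 3, against 208, 443 and 500.0 CPM in saline replicates 1 to 3. The tacrolimus libraries were close together and all below saline replicate 1. The mean was 2.23-fold lower with tacrolimus, with a log2 fold change of -1.16 ± 0.32 and an edgeR adjusted p of 0.392. Without saline replicate 1 the log2 fold change was -1.45 ± 0.11 (edgeR adjusted p = 0.00453), and DESeq2 on 6 libraries gave an adjusted p of 0.0324.

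Which members passed thus turned on saline replicate 1 and on the test. Without that library 5 of the 10 passed as lower with tacrolimus (Gclc, Gsr, G6pdx, Pgd and Taldo1) and 0 as higher, where 6.16% of the 18081 genes then tested passed as lower and 7.85% as higher. DESeq2 on all 6 libraries passed 3 as lower (Gclc, Pgd and Taldo1) and 0 as higher, where 1.44% of 16169 genes with an adjusted p passed as lower and 0.686% as higher. The labels give no reason to leave saline replicate 1 out, and it was singled out from these values for its likeness to the tacrolimus libraries. Whether its label is right was not tested, which bears on every value given with or without it.

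**Figure D2:**
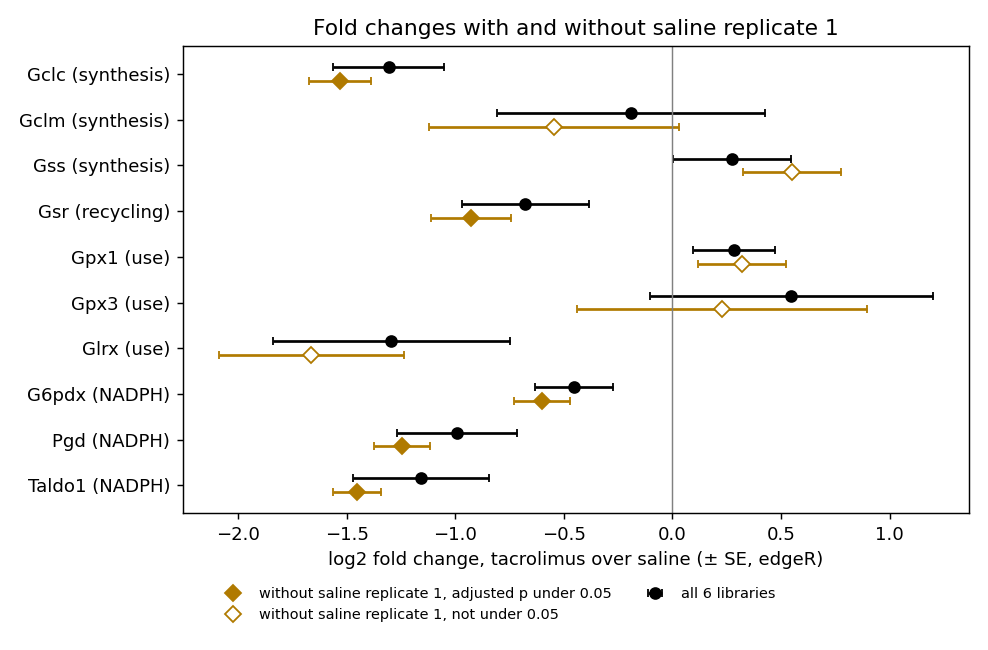
Log2 fold change of each gene, tacrolimus over saline, with its SE from edgeR, for all 6 libraries (black circles) and without saline replicate 1 (diamonds, filled where the adjusted p was under 0.05). Gclc, Gsr, G6pdx, Pgd and Taldo1 carry filled diamonds, and no black circle had an adjusted p under 0.05.

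The summed level of tubular injury markers was highest in the same libraries. The 16 injury markers, all tested and none at 0 in every library, summed to 2813, 3717 and 8031 CPM in tacrolimus replicates 1 to 3 and to 8101, 31670 and 31570 CPM in saline replicates 1 to 3. Most of that sum was osteopontin (Spp1), with 2210, 2965 and 6955 CPM with tacrolimus and 6806, 26790 and 25080 CPM with saline. Of the 16 genes, 13 were higher in both saline replicates 2 and 3 than in each of the other 4 libraries. Vim, Vcam1 and Cd44 were not, and had their highest levels in tacrolimus replicate 3 (Vim, 97.7 CPM) or saline replicate 1 (Vcam1 and Cd44, 24.0 and 6.95 CPM). Havcr1, the tubular injury marker KIM-1, had 14.95, 57.7 and 118 CPM with tacrolimus, against 268, 1598 and 1081 CPM with saline. Saline replicates 2 and 3 thus held the highest injury marker sums and the highest Gclc, Gsr, Glrx, G6pdx, Pgd and Taldo1 levels. Saline replicate 1 had an injury sum close to that of tacrolimus replicate 3. Slc34a1, the proximal tubule phosphate transporter, had 1981, 2565 and 2435 CPM with tacrolimus, against 1987, 335 and 224 CPM with saline. Of the 18 proximal tubule markers, 14 were lower in both saline replicates 2 and 3 than in each of the other 4 libraries, and Slc4a4, Pck1 and Kap were among those that were not. Neutrophil markers (6 of 6 tested) summed to 6.44, 5.27 and 4.17 CPM with tacrolimus and 10.8, 26.4 and 36.7 CPM with saline. The part of injury, tubule or neutrophil RNA in the levels of the 10 genes was not tested.

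**Figure D3:**
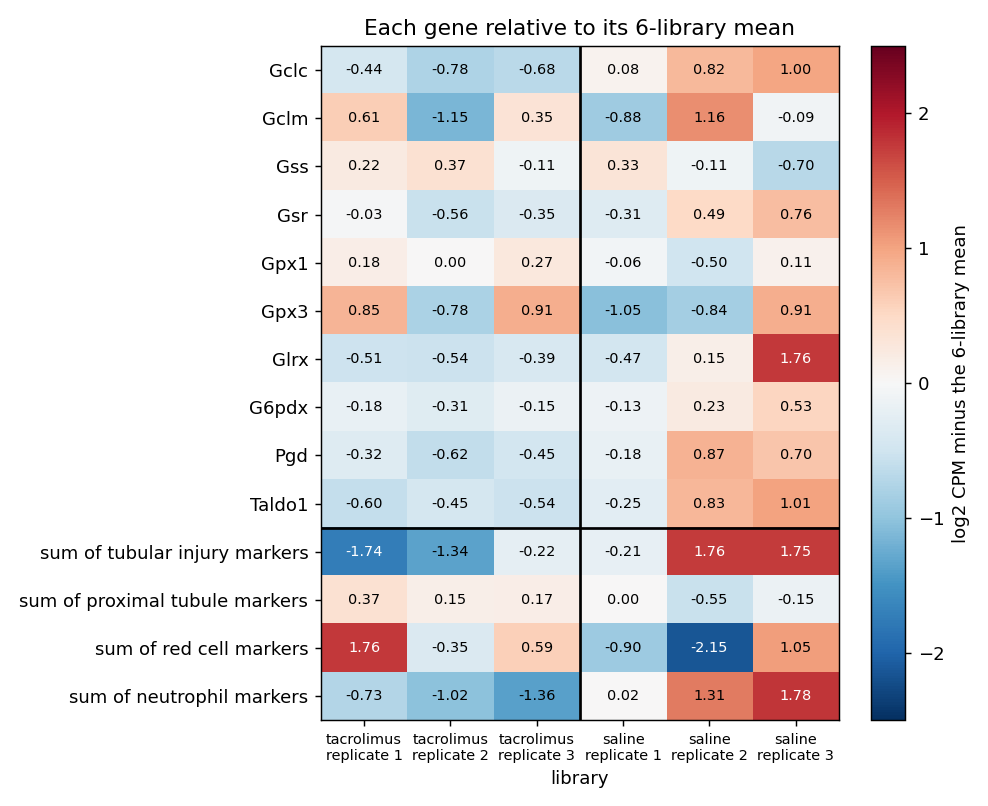
Log2 CPM of each gene and of 4 marker sums minus its mean over the 6 libraries, tacrolimus libraries at the left and saline libraries at the right, red above and blue below the mean. Gclc, Gsr, Glrx, G6pdx, Pgd and Taldo1 were above their means in saline replicates 2 and 3, where the injury marker sum was 1.76 and 1.75 above its mean. Gpx3 followed another split of the libraries.

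Cysteine is the scarce precursor of glutathione, and 23 genes of cysteine supply and glutathione breakdown were all tested. Of these, 8 were lower and 15 higher with tacrolimus (median log2 fold change 0.36), and 0 passed with 6 libraries. In every tacrolimus library 1 was lower and 10 were higher, where 11% and 10.7% of all genes tested showed these patterns. Slc7a11, the cystine importer, had 0.447, 0.403 and 0.545 CPM with tacrolimus, against 0.969, 4.45 and 6.31 CPM with saline. It was low everywhere, all tacrolimus libraries lay below all saline libraries, and its log2 fold change was -3.06 ± 0.68 (edgeR adjusted p = 0.392; DESeq2 adjusted p = 0.00137).

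The 4 other genes of the list with the smallest p had higher means with tacrolimus. Further breakdown genes, named after their values were seen, went both ways. Chac1, Ggt7, Oplah and Ggct had log2 fold changes of -0.48, -0.11, -0.04 and -0.01, with overlapping groups. Chac2, Anpep, Ggt6, Ggt5, Lap3 and Cndp2 had 0.66, 0.69, 0.63, 0.45, 0.29 and 0.28. The groups of Chac2, Ggt5 and Lap3 did not overlap. Cth, which encodes cystathionine gamma-lyase, the enzyme that yields cysteine on the route out of methionine, had 204, 207 and 205 CPM with tacrolimus, against 131, 122 and 98.9 CPM with saline (log2 fold change 0.81 ± 0.14, edgeR adjusted p = 0.392). Cbs, for cystathionine beta-synthase, had 92.3, 83.3 and 77.1 CPM with tacrolimus, against 66.4, 31.2 and 36.6 CPM with saline. All tacrolimus values of both genes lay above all saline values. Ggt1, the brush border gamma-glutamyltransferase that starts glutathione breakdown, had 543, 584 and 556 CPM with tacrolimus, against 459, 329 and 330.4 CPM with saline. Dpep1, a brush border dipeptidase that splits the resulting cysteinyl-glycine, had 56.6, 59.4 and 63.3 CPM with tacrolimus, against 37.8, 14.6 and 17.1 CPM with saline. For Ggt1 and Dpep1, too, saline replicate 1 was the saline library nearest the tacrolimus ones. Without it, 1 gene of the list passed as lower (Slc7a11) and 7 as higher, Cth, Cbs, Ggt1 and Dpep1 among them (edgeR adjusted p = 0.0114, 0.00649, 0.0108 and 0.00377), where 6.16% of all genes passed as lower and 7.85% as higher. With DESeq2 on 6 libraries 1 passed as lower and 2 as higher, where 1.44% and 0.686% of all genes with an adjusted p did. Ggt1 and Dpep1 are proximal tubule enzymes. The proximal tubule marker sum was also higher in every tacrolimus library, 22930 to 26770 CPM against 14080 to 20680 CPM with saline. That sum need not follow a single marker. In saline replicate 3 it was 18610 CPM, while Slc34a1 had 224 CPM there, against 1981 to 2565 CPM with tacrolimus. Of the 18 markers, 14 were lower in both saline replicates 2 and 3 than in each of the other 4 libraries. The part of tubule RNA in these values was not tested.

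Of 14 other glutathione-linked peroxidases and reductases 13 were tested, 6 lower and 7 higher with tacrolimus, and 0 passed with 6 libraries. Their log2 fold changes ran between -0.34 and 0.31 with a median of 0.00. Prdx6, a peroxiredoxin that draws on glutathione, had 157, 177 and 179.8 CPM with tacrolimus, against 193, 242 and 213 CPM with saline (log2 fold change -0.34 ± 0.13, edgeR adjusted p = 0.393). It was the 1 gene of the list that was lower in every tacrolimus library. Adh5, which reduces S-nitrosoglutathione, was the 1 gene higher in every tacrolimus library, at 156, 154 and 160 CPM against 150, 134 and 132 CPM with saline. Of all genes tested, 11% were lower and 10.7% higher in every tacrolimus library. Glrx5, Ptges2 and Glo1 had log2 fold changes of -0.27 ± 0.18, 0.17 ± 0.13 and 0.14 ± 0.11, with overlapping groups. Without saline replicate 1, 1 gene of the list passed as lower and 0 as higher (6.16% and 7.85% of all genes tested). That gene was Esd, which encodes S-formylglutathione hydrolase and is named after its values were seen. It had 377, 395 and 357 CPM with tacrolimus, against 275, 533 and 584 CPM with saline. The groups overlapped, with saline replicate 1 the lowest of all libraries, and the log2 fold change was -0.30 ± 0.28 with 6 libraries (edgeR adjusted p = 0.589) and -0.57 ± 0.11 without it (edgeR adjusted p = 0.0253).

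Among 23 other genes of NADPH supply and the pathways around it, not all of which make NADPH, 22 were tested and Tktl2 was at 0. Of the tested genes 7 were lower and 15 higher (median log2 fold change 0.16), and 0 passed with 6 libraries. In every tacrolimus library 3 were lower and 5 higher, where 11% and 10.7% of all genes tested showed these patterns. Without Nnt, whose reads are split over a pair of rows, 7 of 21 were lower and 14 higher (median 0.14), and 3 were lower and 4 higher in every tacrolimus library. H6pd, the endoplasmic reticulum counterpart of G6pdx, had 243, 242 and 246 CPM with tacrolimus, against 244, 604 and 633 CPM with saline. Its saline replicate 1 lay within the narrow tacrolimus range (log2 fold change -1.02 ± 0.35, edgeR adjusted p = 0.392; -1.34 ± 0.10 and 0.00377 without saline replicate 1). Mthfd1l, of mitochondrial folate metabolism, had 2.68, 2.85 and 4.26 CPM with tacrolimus, against 4.72, 9.88 and 13.4 CPM with saline, and its groups did not overlap (log2 fold change -1.52 ± 0.41, edgeR adjusted p = 0.392). Prps1, which draws ribose phosphate out of the pathway, had 28.1, 27.8 and 30.3 CPM with tacrolimus, against 31.1, 45.1 and 43.3 CPM with saline. In the other direction, the mitochondrial Idh2 had 304, 260 and 243 CPM with tacrolimus, against 226, 131 and 204 CPM with saline (log2 fold change 0.53 ± 0.22, edgeR adjusted p = 0.397). Rbks, ribokinase, had 11.4, 9.16 and 10.3 CPM with tacrolimus, against 7.61, 8.61 and 7.62 CPM with saline. Without saline replicate 1, 3 genes of the list passed as lower and 3 as higher, where 6.16% and 7.85% of all genes did. DESeq2 on 6 libraries passed 1, Mthfd1l, as lower and 0 as higher, where 1.44% and 0.686% of all genes with an adjusted p passed.

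Nnt, the mitochondrial transhydrogenase that makes NADPH, needs separate reading because C57BL/6J mice are known to carry a deletion in it. The table holds 2 rows of this name that overlap on the same strand. The row with more reads had 102, 99.5 and 84.0 CPM with tacrolimus, against 70.5, 0 and 28.5 CPM with saline. The other row had 4.28, 4.67 and 11.9 CPM with tacrolimus, against 11.3, 43.7 and 11.8 CPM with saline. The rows ran in opposite directions and summed to 106, 104 and 95.9 CPM with tacrolimus, against 81.8, 43.7 and 40.3 CPM with saline, so how reads were divided between them is uncertain and no direction is read from either.

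**Figure D4:**
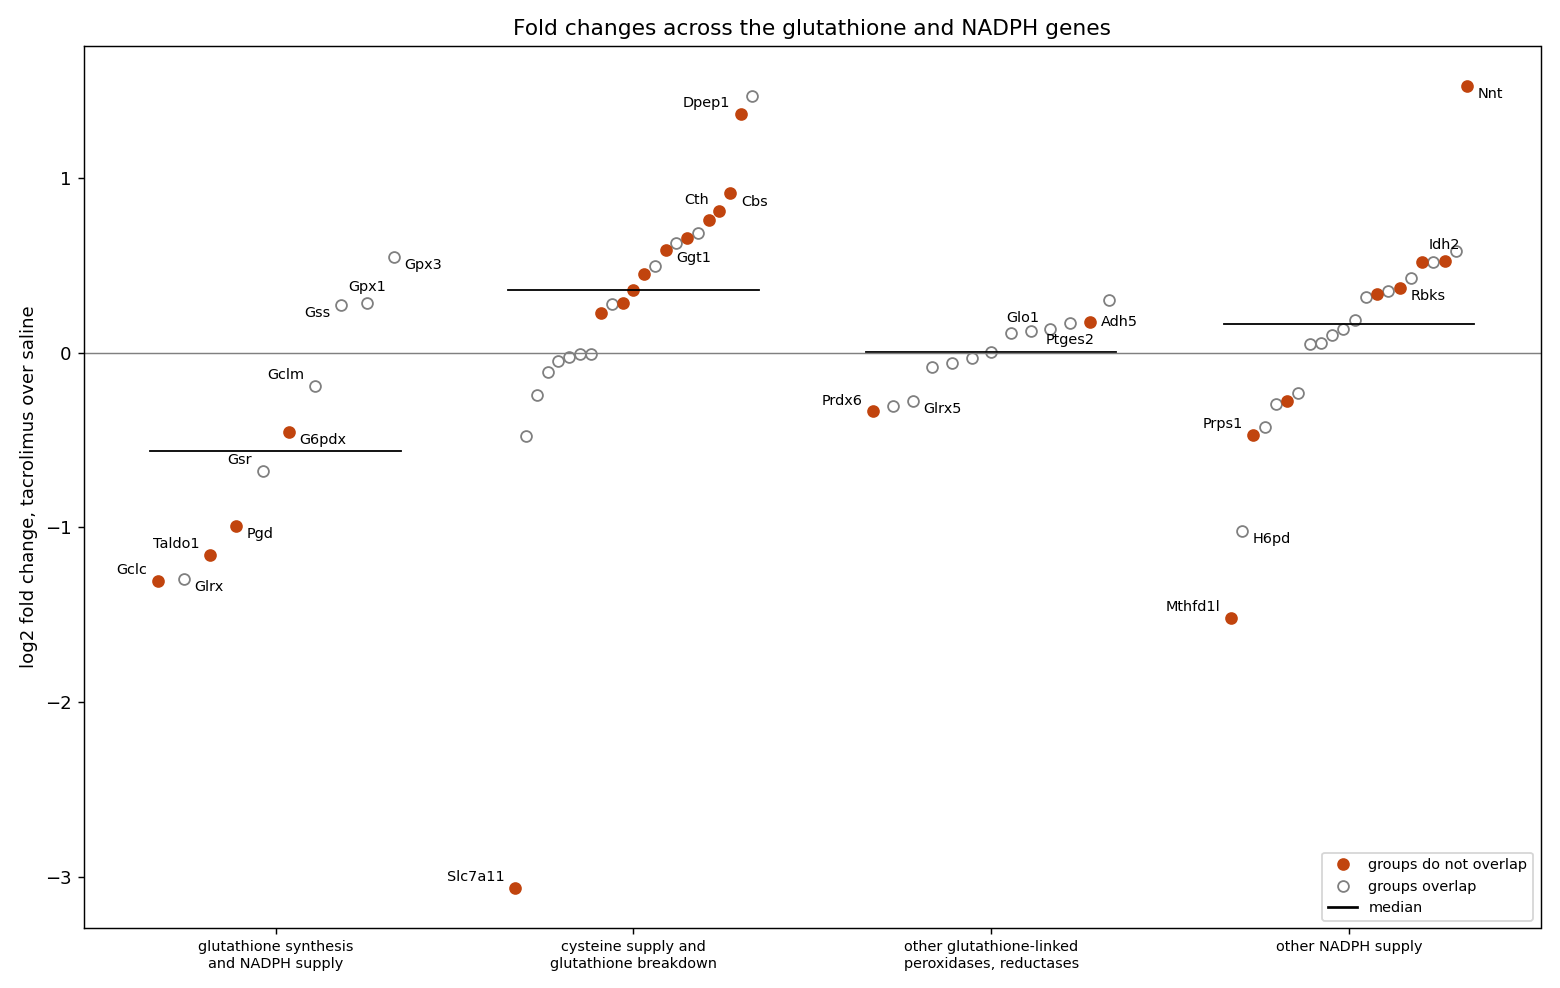
Log2 fold change, tacrolimus over saline, of the 10 genes and of 3 lists of related genes (tested genes only), each point a gene, filled where the groups did not overlap, with a line at each median. The medians were -0.56, 0.36, 0.00 and 0.16 in the order drawn, Slc7a11 at -3.06 was the lowest point, and the Nnt point is 1 of 2 overlapping rows.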

How the data were processed

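Whole-kidney RNA-seq was analysed from 6 libraries, grouped and numbered by their titles, with doses and times from the design text. The deposited table gives, per the file headers, a raw count and an FPKM value per gene and library. The counts deposited by the authors are whole numbers and are not normalized. The FPKM values deposited by the authors divide by a gene length that is not in the table and by a library total, which came to 0.950 to 1.03 times the count sum, so they carry a scaling between libraries. Coordinates are on GRCm39, the build named in the submitters' processing notes. For the aligner, the counter, the annotation and strand use, the sources used here give nothing.

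Counts were tested with edgeR 4.0.16 in R 4.3.3: filterByExpr (minimum count 10, minimum total 15), TMM factors (0.942 to 1.03), a robust quasi-likelihood fit, two-sided p-values and Benjamini-Hochberg adjustment over 17557 genes with a threshold of 0.05. The biological coefficient of variation was 0.304. The SE of a log2 fold change came from its F statistic. DESeq2 1.42.0 and limma 3.58.1 on log2(FPKM + 1) were alternatives, and the scripts were tested on simulated data. Where a symbol had several rows, the row with the largest summed count was taken. The text names all 10 genes, up to 5 genes per related list with the smallest unadjusted p, Nnt, and Havcr1, Slc34a1, Lcn2 and Krt20 as measures of injury and tubule. Lcn2 had 31.4 to 72.2 CPM with tacrolimus and 77.1 to 2600 CPM with saline, and Krt20 had 3.01 to 7.96 CPM and 13.4 to 631 CPM in the same order. Neighbouring, overlapping and highly variable genes, and Spp1, Vim, Vcam1, Cd44, Slc4a4, Pck1 and Kap, were named after their values were seen. The members, lists and tests were chosen with earlier results of these data known. No libraries were duplicates (chi-square per degree of freedom of 52.8 to 381 between libraries).

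Other marker lists gave these sums: thick ascending limb 6438 to 8443 CPM with tacrolimus and 2685 to 6725 CPM with saline, distal and collecting duct 1263 to 1758 and 720 to 1369 CPM, podocyte and endothelial 716 to 837 and 516 to 747 CPM, fibroblast and pericyte 420 to 512 and 196 to 396 CPM, myeloid 130 to 155 and 74.1 to 148 CPM. Lymphocyte genes summed to 2.42 to 4.01 and 0.597 to 1.96 CPM, and liver, adrenal and fat genes to 109 to 156 and 124 to 153 CPM, in the same order.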

Additional observations from a re-analysis of the deposited data

How the results depend on the processing

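The count of genes called was 2 with all 6 libraries, 344 with DESeq2, 1 with the replicate block, and 0 to 2534 when 1 library was left out, the highest without saline replicate 1. Members called were 0 with all 6 libraries, 3 with DESeq2, and 0 to 5 when 1 library was left out, again the highest without saline replicate 1. Genes of the 3 related lists (23, 13 and 22 tested) called were 0, 4 with DESeq2, and 0 to 15 when 1 library was left out, 15 without saline replicate 1. Of all genes, DESeq2 passed 1.44% as lower and 0.686% as higher, and edgeR without saline replicate 1 passed 6.16% and 7.85%. Other scalings, no filter on low counts, limma and the replicate block called 0 members. Replicate numbers did not pair libraries (correlations of same-numbered libraries of -0.01, 0.01 and -0.02), so the replicate block is given as a value only. When 1 library was left out, the log2 fold change of Gclm ran between -0.55 and 0.55, and it reversed to 0.18 without tacrolimus replicate 2 and to 0.55 without saline replicate 2, where its -0.19 ± 0.62 rests on libraries at both levels. The log2 difference of the ratio of Gclc to Gclm ran between -1.61 and -0.88 when 1 library was left out, and that of Gpx3 to Gpx1 between -0.0521 (reversed, without saline replicate 1) and 0.84. Of 130 alternative log2 fold changes of the 10 genes, 120 kept direction and side of the threshold, 8 passed it and 2 reversed, and of 206 for the named related genes 194 kept both and 12 passed it. With an A added at the 3′ end of the motif, matches were found in 1 member (Pgd) instead of 3, where 3.04% of all windows had one. The Pgd match lay after the more downstream of its annotated starts, not before it. The cause of the shifts was not tested.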

Other observations

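Gpx3 and Gclm were in small company among abundant genes with a coefficient of variation above 50% in both groups. The other 11 were Ak4, Spp1, Fgg, Krt20, Cyp24a1, Havcr1, Mettl7a1 and the globin genes Hbb-bs, Hbb-bt, Hba-a1 and Hba-a2. Hbb-bs, the adult beta globin, had 860, 172 and 371 CPM in tacrolimus replicates 1 to 3 and 118, 35.3 and 447 CPM in saline replicates 1 to 3. Cyp24a1, which inactivates vitamin D, had 26.2, 141 and 215 CPM with tacrolimus and 42.3, 547 and 22.4 CPM with saline. Ak4, a mitochondrial adenylate kinase, had 450, 68.6 and 57.4 CPM with tacrolimus and 550, 23.4 and 89.2 CPM with saline. Mettl7a1 had 510, 40.0 and 293 CPM with tacrolimus and 43.9, 174 and 189 CPM with saline, and was thus low in tacrolimus replicate 2 and saline replicate 1, as Gpx3 and Gclm were. These genes were named after their values were seen.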
